A study of Homo sapiens with 18 samples.

Results

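Pieces of osteosarcoma (OS) tumor kept in culture (isolated tissue, IT) were compared with OS cells printed into a hydrogel (3D cell-printed tissue, DP-3), both sampled on day 14 of culture. The members are the 3 IT and the 3 DP-3 libraries carrying these labels, 6 of the 18 libraries of the series. The series also holds 2D cells (D-2) and 3D cells (D-3) grown for 14 days, printed tissue sampled on day 1, and fresh isolated tumor tissue (FIT). Each is a group of 3 libraries. For IT, cells labelled Saos-2, without engineered change, had been injected in Matrigel under the skin of female BALB/c nude mice aged 4 weeks, which lack mature T cells, and trimmed pieces of the resulting tumors were laid on Matrigel and grown in vitro. For DP-3, the same cells were suspended in a bioink of methacrylated gelatin and alginate, extruded as a grid, hardened with blue light and calcium chloride, and grown in medium with fetal bovine serum. The medium of both groups held this serum, penicillin and streptomycin, and treatment with another drug is not described for either culture. The tumors were divided to give both IT and FIT, and the labels do not tie an IT library to an animal, so the p-values measure the spread between these libraries only. The printed tissue never passed through an animal, so passage in the mouse, the tissue piece and the matrix cannot be told apart.

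An explant keeps the cell contacts and matrix that the tumor laid down, whereas printed cells start singly in a gel and build contacts during culture. In both, oxygen and glucose reach the inner cells by diffusion alone. Cells that lack them are known to raise hypoxia-inducible genes such as VEGFA and stress genes such as DDIT3, and cells that stop dividing lower the genes of the mitotic cycle.

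Deposited totals were 57049025 to 66769999 estimated counts in IT and 60000387 to 77174403 in DP-3. Genes reaching 0.1 FPKM numbered 20539 to 21813 in IT and 18664 to 19249 in DP-3. FPKM is the number of fragments scaled by transcript length and library total, and levels below are FPKM unless stated. IT replicate 3 stood apart: it correlated with the other IT libraries at 0.924 and 0.925 (log2 scale, Pearson, across genes), against 0.957 between those 2 and 0.958 to 0.970 within DP-3. DP-3 replicate 3 had 9.22% of its counts on mitochondrially encoded genes, against 4.34% in both other DP-3 libraries and 4.57% to 6.21% in IT. The cell line label was checked against its markers. Saos-2 is known for strong alkaline phosphatase (ALPL), yet ALPL was at 0 to 0.148 in the 18 libraries and SP7, an osteoblast transcription factor, at 0 to 0.0949. COL1A1, the main bone collagen, was at 1.79 to 21.0 and SPARC, a bone matrix protein, at 111 to 289. ALPL and SP7 went against the label in both groups alike, so the cells are called "cells labelled Saos-2". Which line they are was not tested.

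Of 20180 genes tested, 303 were differentially expressed (DEGs: Benjamini-Hochberg adjusted p below 0.05 by edgeR's quasi-likelihood test and a fold change of at least 2). More DEGs were upregulated in IT than downregulated, 220 genes (1.09% of those tested) against 83 (0.411%). The median fold change was 4.97 for the upregulated and 2.90 for the downregulated DEGs. Among the well expressed DEGs with the largest gains in IT were TXNIP, a brake on glucose uptake, NGFR, the low-affinity neurotrophin receptor, and IGFBP5, a binding protein for insulin-like growth factors. The largest losses, by the same rule, were in ALCAM, an adhesion molecule, and PRR16, linked to mitochondrial content. The calls rested on every library of the printed tissue: with DP-3 replicate 1, 2 or 3 left out, edgeR called 0 DEGs, although 3706 to 3976 genes then had an unadjusted p below 0.05. Without IT replicate 1 it called 21 DEGs, without IT replicate 2 192 and without IT replicate 3 309. An unadjusted p below 0.05 was reached by 24.8% of all genes tested, and 53.6% had a log2 fold change above 0, the shares against which the lists below are read. DESeq2 on all 6 libraries called 1811 (8.97%; 6.98% higher and 2% lower in IT), among them 302 of the 303, and all 303 kept their direction in each of these fits. Of the 39 DEGs named below by rule, 3 were called without IT replicate 1, 25 without IT replicate 2, 31 without IT replicate 3 and 0 without a DP-3 library.

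**Figure D1:**
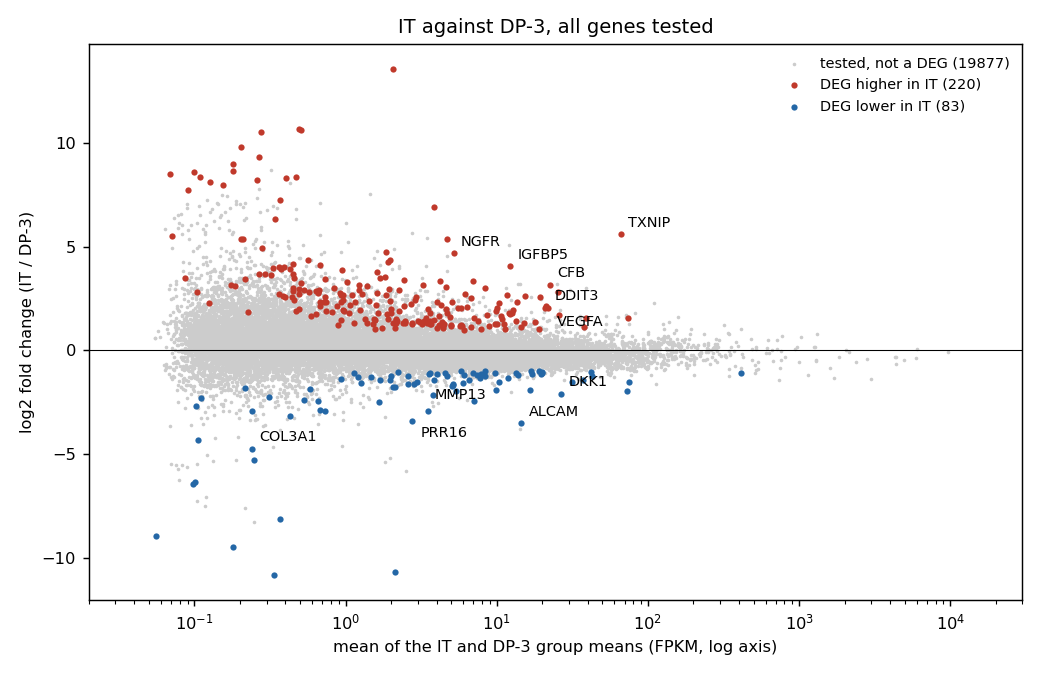
Log2 fold change of IT over DP-3 (vertical) against the mean FPKM of the 2 groups (horizontal, log axis), one point per gene tested; red points are the 220 DEGs higher in IT and blue points the 83 lower. TXNIP and ALCAM lie far from 0 at high expression, and the points beyond 6 in either direction are genes at or near 0 in a group.

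**Figure D2:**
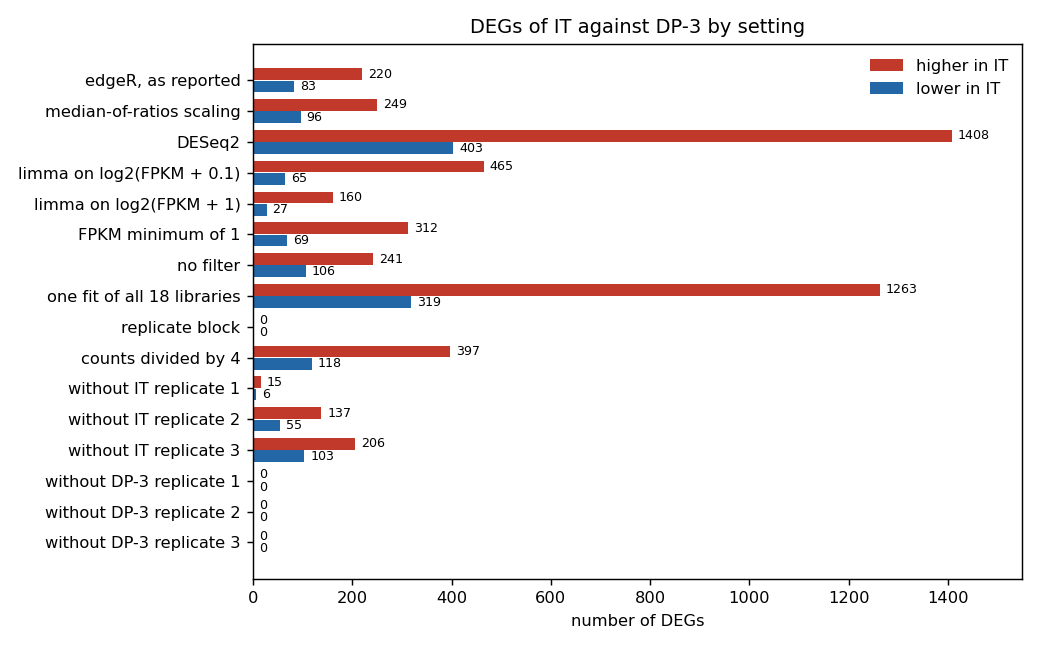
Number of DEGs (horizontal) higher (red) and lower (blue) in IT under each setting tried. The bars for DESeq2 and for 1 fit of all 18 libraries are the longest, and those for the replicate block and for each fit without a DP-3 library are at 0.

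The promoters of the genes that head the upregulated and the immediate early group are shown because they hold short motifs for which these genes are known. TXNIP is known to be induced by FOXO factors when growth factor signalling is low and by the glucose sensor MondoA/ChREBP through paired boxes. DEPP1, also a FOXO target, was upregulated with it, and EGR1 is known to be driven by serum response factor (SRF). The sequences are RefSeq's (build GRCh38.p14, strand of the gene, 5′ to 3′), and capitals mark a match to GTAAACA (FOXO), to 2 CACGAG boxes 5 bases apart, or to CCATATTAG (SRF). TXNIP is from chr1:145996611-145996743 on the minus strand and ends 31 bases before the start site, DEPP1 from chr10:44978930-44979029 on the minus strand and ends 120 bases before it, and EGR1 from chr5:138465334-138465433 on the plus strand and ends 45 bases before it.
TXNIP: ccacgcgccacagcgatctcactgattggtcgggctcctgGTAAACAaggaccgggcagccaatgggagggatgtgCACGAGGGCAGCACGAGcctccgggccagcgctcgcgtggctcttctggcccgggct
DEPP1: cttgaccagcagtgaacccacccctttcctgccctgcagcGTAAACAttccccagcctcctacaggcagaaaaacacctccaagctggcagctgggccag
EGR1: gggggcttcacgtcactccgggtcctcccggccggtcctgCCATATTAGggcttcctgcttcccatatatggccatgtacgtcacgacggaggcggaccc

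Promoters of 300 bases, 250 before and 50 after the first listed start, were matched by symbol for 11243 genes tested, 121 upregulated and 56 downregulated DEGs, and searched on both strands for 9 motifs chosen after the expression values were seen. GTAAACA stood in 8 upregulated promoters (6.61%), against 2.36% of all promoters and 1 downregulated (1.79%). The 8 were ADAMTS13, DENND2A, DEPP1, EZH1, LINC01219, MTURN, TCP11L2 and TXNIP. TXNIP and DEPP1 are known FOXO targets and the string was chosen with their values known, so nothing is read from this share. The CACGAG pair stood in 2 of the 11243 promoters, 1 of them TXNIP. CCATATTAG stood in 12 promoters (0.107%), EGR1 being the DEG among them. This string is a fixed spelling of the SRF site, and other spellings were not searched. The value of 0.107% is therefore not the share of promoters with an SRF site. The EGR1 stretch also holds ccatatatgg, left in lower case because it was not searched for. TXNIP and EGR1 are known for the CACGAG pair and for CCATATTAG, so nothing is read from these 2 matches. CACGTG, the E-box, stood in 9.86% of all, 8.26% of upregulated and 12.5% of downregulated promoters. ACGTG, the core of the hypoxia element and part of the E-box, stood in 26.4%, 19% and 28.6% in the same order. TGANTCA (AP-1) stood in 5.1%, 5.79% and 1.79%, TGACGTCA (cyclic AMP element) in 3.18%, 0.826% and 3.57%, CATTCCA (TEAD) in 2.6%, 4.13% and 1.79%, and GAANNTTC (heat shock) in 4.86%, 7.44% and 5.36%. These matches describe letters and were not tested for binding.

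TXNIP (ENSG00000265972, chromosome 1, 145992435 to 145996579 in the deposited annotation) was at 62.7, 17.2 and 312 in the 3 IT libraries and at 2.53, 3.02 and 1.81 in DP-3. The groups did not overlap, but the IT libraries themselves spread widely, IT replicate 3 being far above the others. The log2 fold change was 5.61 ± 1.04 (SE, n = 3 per group; edgeR adjusted p = 0.0481), and without IT replicate 3 it was 3.88. TXNIP averaged 27.8 in D-3, 8.43 in FIT and 3.19 in D-2. In the printed tissue on day 1 it was at 12.8, 11.8 and 13.2, above each DP-3 library of day 14.

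DEPP1, a fasting-induced gene, was named after its value was seen, for its promoter. It was at 4.75, 2.33 and 8.13 in IT and at 0.770, 0.719 and 0.835 in DP-3 (log2 fold change 2.57, edgeR adjusted p = 0.0433). IT replicate 3 was again the highest library.

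IGFBP5 (chromosome 2, 216672105 to 216695549) was at 41.4, 14.7 and 13.8 in IT against 1.11, 1.78 and 0.909 in DP-3. Its log2 fold change was 4.07 ± 0.50 (SE, n = 3 per group; edgeR adjusted p = 0.0271), and without IT replicate 1 it was 3.37. IGFBP5 averaged 70.1 in FIT but 1.002 in D-3 and 1.17 in D-2, so the tumor-derived groups were the high ones.

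NGFR was at 4.46, 3.83 and 21.9 in IT and at 0.333, 0.480 and 0.254 in DP-3 (log2 fold change 4.70, edgeR adjusted p = 0.0369, and 3.41 without IT replicate 3). AGT, the precursor of the angiotensins, was at 5.95, 1.45 and 3.59 against 0.0616, 0.361 and 0.0985 (log2 fold change 4.24, and 5.30 without DP-3 replicate 2). Both genes were also higher in D-3, where their means were 12.03 and 2.59, than in D-2, at 0.495 and 0.164. The printed tissue on day 1 was at 11.3, 10.4 and 10.9 for NGFR, at the level of IT, with a mean of 0.365 for AGT.

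CFB, complement factor B of the alternative pathway, was at 22.1, 23.2 and 76.7 in IT and at 3.03, 5.69 and 3.75 in DP-3 (log2 fold change 3.17, edgeR adjusted p = 0.0424, and 2.32 without IT replicate 3). SLPI, an inhibitor of leukocyte proteases, was at 14.2, 8.48 and 15.6 against 1.02, 1.81 and 0.609 (log2 fold change 3.35, edgeR adjusted p = 0.0298). SLPI averaged 19.3 in D-3 but only 1.05 in FIT, so the fresh tumor was near the printed tissue for this gene. COLEC10, a collectin, was at 0.801, 0.720 and 1.75 in IT and at 0.102, 0.0230 and 0.0148 in DP-3, and its log2 fold change of 4.36 was 5.59 without DP-3 replicate 1.

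PAMR1, a secreted protein of the muscle regeneration program, was at 7.71, 5.84 and 4.21 in IT and 0.484, 0.302 and 0.979 in DP-3 (log2 fold change 3.17, and 3.80 without DP-3 replicate 3). CKB, the brain form of creatine kinase, was at 1.73, 2.33 and 2.62 against 0.161, 0.218 and 0.273 (log2 fold change 3.13). PGPEP1, a peptidase, had the narrowest spread of these genes, with 1.43, 1.84 and 2.11 against 0.132, 0.0903 and 0.107 (log2 fold change 3.87 ± 0.31, SE; edgeR adjusted p = 0.0154). CKB and PGPEP1 averaged 1.70 and 1.96 in the printed tissue on day 1. ZSCAN18, a zinc finger protein, and LRRN4CL, a membrane protein, completed the 12, with log2 fold changes of 3.44 and 3.28.

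Among the downregulated genes, ALCAM was at 1.44, 1.43 and 4.70 in IT and at 32.1, 25.6 and 21.8 in DP-3. All IT libraries lay below every DP-3 library, at an 11.4-fold lower level (log2 fold change -3.51 ± 0.51, SE, n = 3 per group; edgeR adjusted p = 0.0302), and without IT replicate 3 the log2 fold change was -4.33. ALCAM was at 0.878, 1.84 and 14.7 in FIT, so that the FIT mean of 5.81 rested on FIT replicate 3, and averaged 25.7 in D-3, 39.1 in D-2 and 25.5 in the printed tissue on day 1. Each library of the tumor-derived groups lay below each of the other groups named here.

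PRR16 was at 0.762, 0.497 and 0.284 in IT against 6.17, 4.16 and 4.61 in DP-3 (log2 fold change -3.40, edgeR adjusted p = 0.0268). EMB, a partner of monocarboxylate transporters, was at 0.167, 0.2002 and 0.188 against 1.31, 1.09 and 1.43 (log2 fold change -2.91). DSEL, an enzyme of dermatan sulfate synthesis, was at 2.32, 2.01 and 2.85 against 15.0, 10.3 and 10.1 (log2 fold change -2.43). In FPKM, the IT range of each of these 3 genes was narrower than its distance to DP-3. PRR16 was not tightly grouped in IT for its level, with an SD of 0.240 on a mean of 0.514.

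ANK3, an ankyrin of the membrane skeleton, WDR63, a dynein component of motile cilia, and INSYN2B fell below DP-3 by log2 fold changes of -2.46, -2.87 and -2.48.

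**Figure D3:**
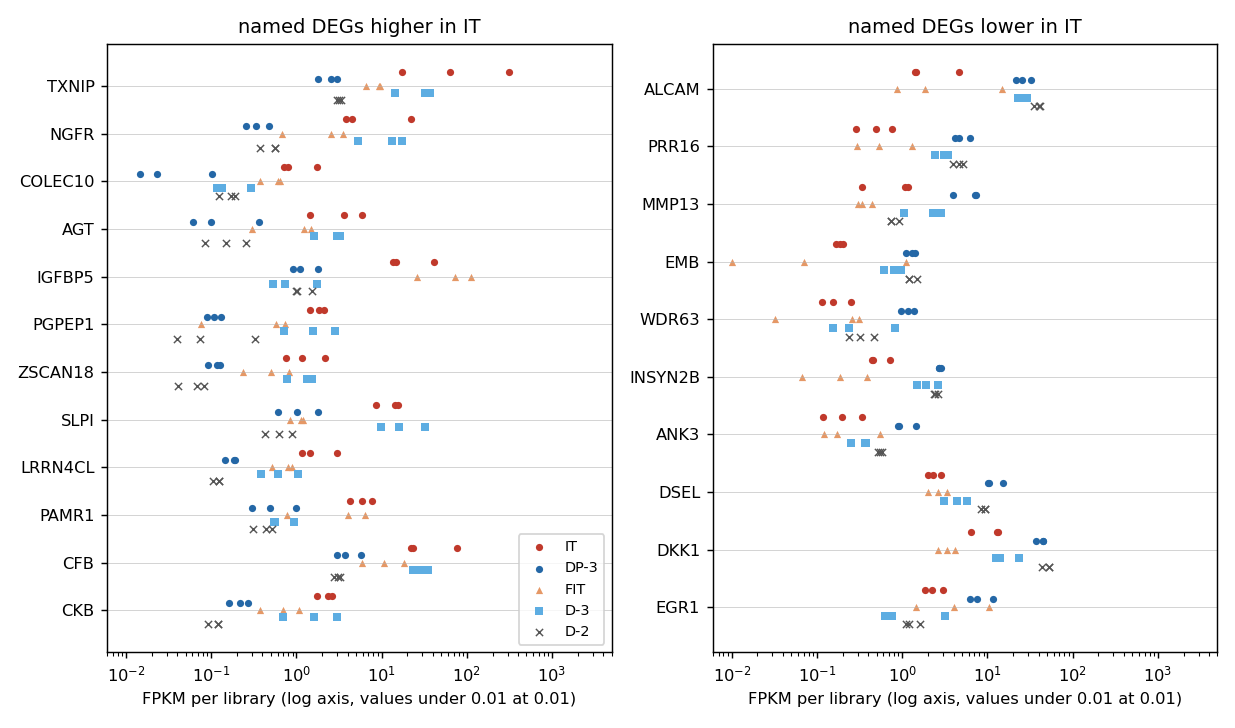
FPKM (log axis) in each library for the 12 upregulated (left) and 10 of the 12 downregulated (right) DEGs with the largest change; red points are IT, dark blue DP-3, orange triangles FIT, light blue squares D-3 and crosses D-2. IT and DP-3 do not overlap for any gene shown; for IGFBP5 and ALCAM the orange FIT points lie on the IT side of D-3 and D-2.

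Genes of matrix turnover were called in both directions. The DEGs on the list of matrix proteases and inhibitors were lower in IT, whereas CEMIP, a hyaluronan-degrading gene outside it, was higher (5.88-fold). Of 17 matrix proteases and inhibitors tested, 3 were DEGs, each downregulated in IT, and the list's median log2 fold change was -0.14, against 0.06 over all genes tested. MMP13, a collagenase, was at 0.339, 1.08 and 1.18 against 7.06, 3.94 and 7.38 (log2 fold change -2.95, edgeR adjusted p = 0.0437). MMP16, a membrane-bound protease, was at 1.53, 1.76 and 1.65 against 3.52, 3.53 and 3.50 (log2 fold change -1.22).

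MMP13 stood higher in DP-3 than in any other group, at a mean of 6.12 against 2.08 in D-3, 0.803 in D-2, 0.3599 in FIT and 0.664 in the printed tissue on day 1. MMP14, the protease that activates MMP2, did not pass the test, with 190, 212 and 173 in IT and 131, 123.3 and 102 in DP-3 (log2 fold change 0.57, edgeR adjusted p = 0.0994). TIMP3, TIMP1 and PLAU overlapped between the groups.

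Of 18 collagens and other matrix genes tested, 2 were DEGs, both downregulated in IT, with a median log2 fold change of -0.27. COL5A2, a fibril-forming collagen, was at 0.853, 1.14 and 0.897 in IT and 2.13, 2.65 and 2.42 in DP-3 (log2 fold change -1.44, edgeR adjusted p = 0.0326). COL3A1, the collagen of pliable tissue, was at 0.00671, 0.0137 and 0.0324 against 0.285, 0.877 and 0.234 (log2 fold change -4.74, edgeR adjusted p = 0.0404), and this value was -3.93 without DP-3 replicate 2 and -5.48 without IT replicate 3. The matrix proteins at the highest level did not pass the test: FN1 was at 530, 1114 and 947 in IT and 1067, 853 and 1518 in DP-3, and COL6A1, a microfibril collagen, at 383, 432 and 887 against 248, 217 and 292. COL6A1 and COL6A2 did not overlap between groups, with edgeR adjusted p of 0.129 and 0.134.

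Of 10 bone matrix and osteoblast genes tested, 0 were DEGs by edgeR and 1 had an unadjusted p below 0.05, while DESeq2 called 1 higher in IT. SPARC was at 111, 143 and 289 in IT and 138, 167 and 143 in DP-3, and COL1A1 at 2.53, 12 and 4.61 against 3.23, 4.11 and 5.02. Integrins and other adhesion genes gave 1 DEG of 20. This was CDH2, N-cadherin, at 3.62, 3.65 and 4.05 in IT and 8.69, 9.93 and 9.44 in DP-3 (log2 fold change -1.44 ± 0.14, SE; edgeR adjusted p = 0.0228). ITGB1, the common partner of the collagen and fibronectin receptors, was at 163, 156 and 242 against 203, 203 and 192, with no call.

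Of 19 hypoxia and glycolysis genes tested, 2 were DEGs, both upregulated in IT, and the median log2 fold change was 0.43. VEGFA, the main angiogenic factor, was at 42.9, 22.0 and 42.2 in IT and at 8.16, 8.63 and 7.09 in DP-3 (log2 fold change 2.04 ± 0.26, SE, n = 3 per group; edgeR adjusted p = 0.0284). NDRG1, a stress gene induced by low oxygen, was at 42.1, 24.2 and 55.0 against 11.7, 11.8 and 10.6 (log2 fold change 1.70, edgeR adjusted p = 0.0400). For both genes IT replicate 2 was the lowest IT library and still above every DP-3 library.

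The glycolytic enzymes PGK1 and LDHA of the same list were not DEGs. PGK1 was at 214, 232 and 209 in IT and 246, 255 and 175 in DP-3 (log2 fold change -0.17, edgeR adjusted p = 0.610). LDHA was at 101, 104 and 92.7 against 147, 151 and 134, below every DP-3 library but without a call (log2 fold change -0.66, edgeR adjusted p = 0.0633). ADM overlapped between the groups.

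DDIT3 (CHOP), a transcription factor of the integrated stress response, was the DEG among 16 ATF4 and unfolded protein response genes tested. It was at 49.9, 19.0 and 36.3 in IT and 7.29, 8.36 and 5.97 in DP-3 (log2 fold change 2.15 ± 0.33, SE; edgeR adjusted p = 0.0348), and the list's median was 0.56. HSPA5, the main chaperone of the endoplasmic reticulum, overlapped, at 288, 264 and 610 against 321, 381 and 374. DDIT3 averaged 9.30 in FIT, near DP-3.

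Of 15 ferroptosis and iron genes, 1 was upregulated: SAT1, which breaks down polyamines, at 13.8, 12.2 and 35.8 in IT and 3.13, 3.20 and 2.49 in DP-3 (log2 fold change 2.68, edgeR adjusted p = 0.0354, and 2.01 without IT replicate 3). The ferritin chains FTL and FTH1, whose pseudogenes can share their reads, overlapped between groups, as did HMOX1 and GPX4. Of 16 NRF2 targets, AKR1B10, an aldo-keto reductase, was upregulated, at 20.8, 14.9 and 13.8 against 5.99, 4.68 and 5.14 (log2 fold change 1.51, edgeR adjusted p = 0.0298), and TXN, PGD and TKT were not DEGs.

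Of 8 genes of the insulin-like growth factor system tested, 2 binding proteins were upregulated in IT, and the list's median log2 fold change was 0.71. Beside IGFBP5, IGFBP3 was at 13.8, 12.1 and 5.81 in IT and at 2.18, 1.61 and 2.83 in DP-3 (log2 fold change 2.11, edgeR adjusted p = 0.0433). IGFBP4 was at 228, 199 and 195 against 86.1, 96.4 and 109. It passed the adjusted p (0.0455, edgeR) at a log2 fold change of 0.96, just under the fold required. IGFBP6 was higher in every IT library, at 73.2 to 114 against 35.6 to 68.3, without passing the test.

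Signalling genes gave single calls. In BMP and TGF-beta signaling, ACVRL1, a type I receptor, was the DEG of 23 tested, at 1.19, 1.502 and 1.18 in IT and 0.434, 0.320 and 0.216 in DP-3 (log2 fold change 1.86, edgeR adjusted p = 0.0479). The BMP target ID3 was at 60.3, 121 and 205 against 334, 248 and 235 and did not pass (log2 fold change -1.20, edgeR adjusted p = 0.131). In Wnt signaling, DKK1, a secreted inhibitor of the Wnt coreceptors, was the DEG of 14 tested. DKK1 was at 13.3, 13.0 and 6.40 in IT and 44.8, 37.0 and 45.3 in DP-3 (log2 fold change -2.09 ± 0.29, SE; edgeR adjusted p = 0.0298). It averaged 16.7 in D-3, 3.38 in FIT and 49.5 in D-2.

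Immediate early genes moved both ways. EGR1, a zinc finger factor induced within minutes of stimulation, was at 3.02, 1.84 and 2.23 in IT and 7.56, 6.24 and 11.5 in DP-3 (log2 fold change -1.98, edgeR adjusted p = 0.0354). IER3, a regulator of cell death, was at 3.23, 2.89 and 4.81 against 0.933, 0.849 and 0.879 (log2 fold change 1.89, edgeR adjusted p = 0.0458). FOSL1, an AP-1 subunit, was at 68.0, 82.7 and 27.1 against 131, 171 and 202 and missed the threshold (log2 fold change -1.64, edgeR adjusted p = 0.0724). JUNB was at 46.0, 29.1 and 216 in IT and 28.2 to 30.6 in DP-3, the high value being that of IT replicate 3.

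The 18 proliferation genes all lay below 0 on the log2 scale, with a median of -0.71, and 12 of them had every IT library below every DP-3 library, as did 10.7% of all genes tested (23% had every IT library above). None was a DEG by edgeR. An unadjusted p below 0.05 was reached by 13, against 24.8% of all genes, and DESeq2 called 3. CCNB1, the cyclin of mitosis, was at 42.8, 53.2 and 26.1 in IT and 83.7, 78.4 and 57.8 in DP-3 (log2 fold change -0.97, edgeR adjusted p = 0.0894). TOP2A, a topoisomerase, was at 46.9, 50.1 and 31.8 against 55.5, 55.8 and 54.9, and PCNA, the replication clamp, at 92.4, 86.3 and 46.8 against 121, 112 and 85.1. IT replicate 3 had the lowest sum over the list, 264, against 482 and 505 in the other IT libraries and 582 to 660 in DP-3. The sum was 407 on average in D-3, 507 in FIT and 802 in D-2. In bulk RNA, fewer cells of a kind and less RNA per cell cannot be told apart.

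In pyrimidine metabolism, which feeds DNA synthesis, 0 of 16 genes were DEGs by edgeR, with 5 at an unadjusted p below 0.05, near the 24.8% of all genes, and 1 called lower by DESeq2. TK1, the thymidine kinase of dividing cells, was at 43.0, 47.5 and 19.5 in IT and 82.4, 73.2 and 72.6 in DP-3 (log2 fold change -1.18, edgeR adjusted p = 0.0807).

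Of 12 MHC class I presentation genes tested, 7 had every IT library above every DP-3 library, against 23% of all genes, and 11 were above 0, against 53.6%, with a median log2 fold change of 0.76. None was a DEG by edgeR. An unadjusted p below 0.05 was reached by 7, against 24.8% of all genes, and DESeq2 called 5. HLA-B was at 95.7, 97.8 and 363 in IT and 36.2, 47.7 and 22.7 in DP-3 (log2 fold change 2.27, edgeR adjusted p = 0.0739), and HLA-C at 160, 132 and 236 against 84.6, 91.8 and 58.8. B2M, the shared light chain, overlapped, at 99.5, 90.1 and 185 against 87.6, 101 and 73.4. Reads of these near-identical genes can be split between them. The list's sum was 561 to 1418 in IT, 297 to 416 in DP-3, 641 to 1150 in FIT, 883 to 1009 in D-3 and 328 to 334 in D-2.

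Of 20 interferon response genes tested, IFIT1, an antiviral RNA sensor, was a DEG, lower in IT at 8.56, 6.81 and 6.20 against 17.8, 19.6 and 12.1 (log2 fold change -1.32, edgeR adjusted p = 0.0344), and the list's median was -0.33. ISG15 and IFI6 overlapped between the groups.

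The remaining lists held 0 DEGs by edgeR. Against 24.8% of all genes, the number with an unadjusted p below 0.05 was 1 of 17 cholesterol synthesis genes, 5 of 13 YAP and TEAD targets, 3 of 14 inflammatory and NF-kB targets, 2 of 3 metallothioneins and 0 of 13 mitochondrially encoded genes. DESeq2 called 0, 1, 3, 0 and 0 of them. In IT replicate 3, GADD45B, a stress gene, was at 195, against 7.32 and 6.30 in the other IT libraries, and NFKBIA, the NF-kB inhibitor, at 70.5 against 12.7 and 17.2. DP-3 was at 6.78 to 9.45 and 13.95 to 17.1 for these 2 genes.

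**Figure D4:**
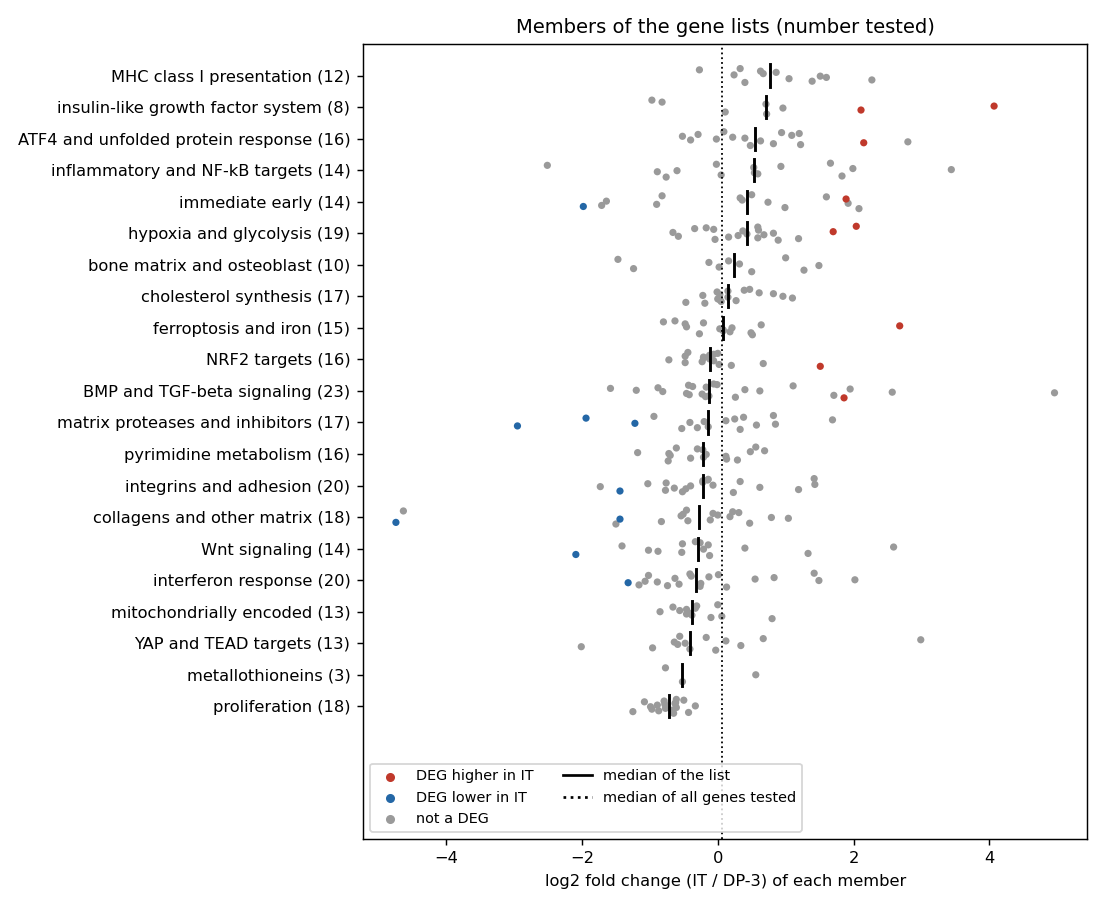
Log2 fold change of IT over DP-3 (horizontal) for every tested member of each gene list, 1 row for each list of a pathway or program with the number tested; red and blue points are DEGs, grey points are not, the black bar is the list's median and the dotted line the median of all genes. The proliferation points all lie left of 0, at a median of -0.71, and the MHC class I median, at 0.76, is the highest of the lists plotted; the lists of host cell markers are not plotted.

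Markers of the cell types that a tumor piece from a mouse could carry were measured beside these genes. The reads were aligned to human sequence as far as the sources used here show, and reads of mouse cells were not separated here. Skeletal muscle markers summed to 0.750 to 1.33 in IT and 0.636 to 0.762 in DP-3, with 4 and 8 of 16 at 0 throughout. The 4 red blood cell markers summed to 0 to 0.0606 in IT and were all at 0 in DP-3, and lymphocyte markers summed to 1.61 to 3.01 against 1.15 to 4.55. Adipocyte markers summed to 0.835 to 1.43 against 1.21 to 8.85, macrophage markers to 44.3 to 65.5 against 48.3 to 117, most of it CD68, and Schwann cell markers to 0.491 to 1.43 against 1.16 to 1.57. None of these 6 lists held a DEG by edgeR. An unadjusted p below 0.05 was reached by 2 of 3 lymphocyte, 2 of 4 adipocyte and 1 of 2 Schwann cell markers tested, by 0 of 3 muscle and 0 of 4 macrophage markers, and 0 red blood cell markers could be tested. DESeq2 called 1 lymphocyte and 2 adipocyte markers.

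Fibroblast markers summed to 64.8 to 107 in IT and 73.4 to 98.0 in DP-3, pericyte and smooth muscle markers to 3.33 to 5.36 against 6.52 to 11.9, and keratinocyte markers to 25.3 to 30.1 against 17.9 to 23.0. The last 2 sums did not overlap between the groups, and their part in the results was not tested. These lists also held 0 DEGs by edgeR, with 2 of 8, 2 of 3 and 1 of 2 tested genes at an unadjusted p below 0.05, and DESeq2 called 2, 1 and 1.

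Endothelial markers were the exception, with 2 DEGs of 6 tested and sums of 37.9 to 55.2 in IT against 29.8 to 33.6 in DP-3. PECAM1, the junction molecule CD31, was at 5.01, 3.29 and 3.76 in IT and 1.51, 1.42 and 1.58 in DP-3 (log2 fold change 1.28 ± 0.20, SE; edgeR adjusted p = 0.0354). CDH5, VE-cadherin, was at 0.874, 1.34 and 0.320 against 0.0845, 0.0743 and 0.0474 (log2 fold change 3.47, edgeR adjusted p = 0.0411). Both were high in FIT as well, with means of 3.59 and 0.656. Of the 6 tested, 5 had a log2 fold change above 0, against 53.6% of all genes. Every IT library lay above every DP-3 library for 4, against 23% of all genes. ESAM went the other way (log2 fold change -0.70, edgeR adjusted p = 0.524). VWF, KDR, TEK and CLDN5 were below the filter, with IT means of 0.0463, 0.00288, 0.310 and 0.0191, so the call did not extend to the whole list. Most of the sum was TIE1, at 42.1, 39.8 and 29.2 in IT and 28.0, 24.7 and 26.7 in DP-3. The sum was 44.5 to 45.7 in D-3, which held no mouse tissue, but PECAM1 and CDH5 themselves averaged 0.888 and 0.0363 there. The part of these markers in the other results was not tested.

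The DEGs were then followed in libraries that the comparison did not use, as a description with no test. Every D-3 library lay above every D-2 library for 181 of the 220 upregulated DEGs (82.3%), against 36.7% of all genes tested. Of the 83 downregulated DEGs, 50 (60.2%) had every D-3 library below every D-2 library, against 14.5% of all genes. With FIT in place of D-3, 164 upregulated DEGs (74.5%) lay above D-2, against 29.5% of all genes, and 51 downregulated DEGs (61.4%) lay below, against 18.2%. These 2 comparisons share the D-2 libraries. The DEGs between IT and DP-3 were thus, at a share above the background, genes that also separated 3D cells and fresh tumor from 2D cells in the same direction. Genes reaching 0.1 FPKM numbered 17716 to 18109 in D-2, 21384 to 22322 in D-3 and 19969 to 21750 in FIT. D-2 was thus the lower group here, as DP-3 was against IT. FIT replicate 3 had a total of 23721666 estimated counts, against 64271701 and 65871171 in the other FIT libraries. The part of these differences in the shares was not tested.

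FIT and D-3 were also set against each other. Of the upregulated DEGs, 25 (11.4%) were above in every FIT library, against 11.9% of all genes, and 57 (25.9%) below, against 19.9%. Of the downregulated DEGs, 25 (30.1%) were lower in FIT, against the same 19.9%, and 7 (8.43%) higher, against 11.9%.

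**Figure D5:**
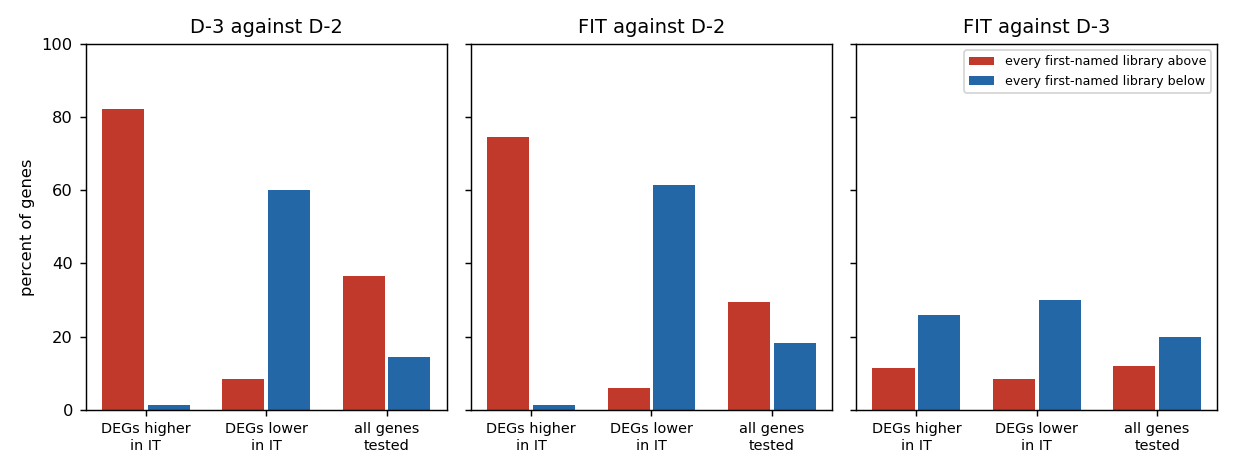
Percent of genes (vertical) for which every library of the first-named group lay above (red) or below (blue) every library of the second, for the DEGs higher and lower in IT and for all genes tested. For D-3 against D-2 the red bar of the upregulated DEGs stands at 82.3% against 36.7% for all genes.

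Within the DEGs, a common pattern and a rarer one could be told apart. In the common one, IT and D-3 lay together: 176 upregulated DEGs (80%) had every IT and D-3 library above every DP-3 and D-2 library, and 45 downregulated DEGs (54.2%) had them below. Over all genes tested these shares were 12.7% and 3.43%. TXNIP, NGFR, PGPEP1, SLPI and CFB were among the first, and DKK1 among the second. In the rarer pattern, IT and FIT lay apart from DP-3, D-3 and D-2. It held 21 upregulated DEGs (9.55%), against 0.842% of all genes, and 17 downregulated DEGs (20.5%), against 0.758%. The separation of IT from DP-3 in both patterns is what chose the DEGs, so nothing is read from these shares against the background.

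The 21 genes high in both tumor-derived groups included IGFBP5, IGFBP3, PECAM1, CDH5, AKR1B10 and COLEC10. Beyond the genes named by rule, they held LAMA5, a laminin chain of basement membranes, at 8.08, 9.14 and 5.29 in IT, 1.43, 1.48 and 2.18 in DP-3 and a mean of 13.0 in FIT, and CD24, a surface glycoprotein, at 18.4, 12.6 and 31.3 against 4.36, 6.73 and 3.59, with 37.5 in FIT. The 17 genes low in both included ALCAM, PRR16 and INSYN2B, and IL7R, the interleukin-7 receptor, at 9.31, 8.81 and 4.43 in IT, 29.3, 21.5 and 26.3 in DP-3 and 3.77 in FIT. LAMA5, CD24 and IL7R were chosen after their values were seen.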

How the data were processed

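Poly(A) RNA of 18 libraries was sequenced as read pairs. The authors filtered reads with Cutadapt 1.9, aligned them with HISAT2 2.0.4 and assembled transcripts with StringTie 1.3.4d, per the submitters' processing notes; the genome build and annotation are not given in the sources used here. The authors deposited an FPKM value and an estimated count for each of 50119 genes and each library. The estimated counts are whole numbers that follow coverage: 35.0% of those from 1 to 40 are multiples of 4, against 25% of the whole numbers in that range, and about 4 counts were assumed to stand for 1 read pair. Counting strand is not stated. Deposited positions overlapped GENCODE release 29 for 99.98% of 48223 genes found there. All pairs of libraries differed in their counts, and every per-sample column was mapped to a library.

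The 3 IT and 3 DP-3 libraries were fitted with edgeR 4.0.16 in R 4.3.3 (TMM scaling, estimateDisp, glmQLFit, glmQLFTest) over the 20180 genes that reached 0.1 FPKM in 3 or more of the 6. TMM factors were 1.04 to 1.07 in IT and 0.902 to 0.986 in DP-3, the median log2 fold change was 0.06 and the biological coefficient of variation 39.2%. DEGs needed a Benjamini-Hochberg adjusted p below 0.05 and a fold change of at least 2, after the study's thresholds. Estimated counts are not independent reads, so precision was taken from the replicates. Alternatives were DESeq2 1.42.0, limma 3.58.1 on log2(FPKM + 0.1) and log2(FPKM + 1), median-of-ratios scaling, an FPKM minimum of 1, no filter, 1 fit of all 18 libraries, counts divided by 4, a block for the replicate number, and fits lacking 1 library. The code was tested on simulated counts. Tables were made with pandas 2.3.3.

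Genes were named by a rule: the 12 DEGs in each direction with the largest change among coding genes that none of the 6 libraries lists at 0, that average 1 FPKM or more in IT or DP-3 and that do not overlap, up to 6 DEGs and the 4 other most expressed members of each list, and the markers. The comparison, the lists and the rule were chosen with earlier results of these data known. A few genes under this rule are not reported here. Groups were taken from the labels. Where a gene had at most 12 estimated counts (3 read pairs under that assumption) throughout IT or DP-3, only a lower bound of the fold is given.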

Additional observations from a re-analysis of the deposited data

How the results depend on the processing

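DESeq2 called 1811 DEGs (1408 higher and 403 lower in IT), 1 fit of all 18 libraries 1582 (1263 and 319), counts divided by 4 515 (397 higher), limma on log2(FPKM + 0.1) 530 (465 higher) and limma on log2(FPKM + 1) 187 (27 lower). The counts under median-of-ratios scaling, no filter and an FPKM minimum of 1 stayed within 1.5 times. With each library left out, edgeR called 0 to 309 DEGs, 0 to 206 higher and 0 to 103 lower. The 0 came without DP-3 replicate 1, 2 or 3, where 3706, 3976 and 3962 genes had an unadjusted p below 0.05. The replicate number as a block gave 0 DEGs by edgeR, with 4027 genes at an unadjusted p below 0.05. Same-numbered IT and DP-3 libraries did not deviate together (correlations -0.041, -0.031 and -0.0412) and 0 of 3 IT libraries correlated best with its own number. The labels give only the replicate number. Correlations over all genes cannot exclude a shared step that touched few genes. All 303 DEGs kept their direction in each setting, 218 of them being tested at the FPKM minimum of 1. Of the 39 DEGs named by rule, DESeq2, median-of-ratios scaling and no filter called 39 again, the fit of all libraries 37, limma 37 and 22, and the block 0. The cause of these shifts was not tested. The number of libraries, 3 per group, limits the precision of every value.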

Other observations

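The genes in the following lines were chosen after their values were seen. Genes of any class other than protein-coding made up 58 of the 220 upregulated DEGs (26.4%) and 4 of the 83 downregulated DEGs (4.82%), against 34.6% of all genes tested. These classes hold pseudogenes and unassigned genes beside non-coding RNAs. LINC00922 had the smallest adjusted p of all genes tested (0.00737, edgeR), at 49.6, 42.9 and 42.0 FPKM in IT and 4.85, 5.98 and 6.31 in DP-3, a 7.14-fold difference. NEAT1, the scaffold RNA of paraspeckles, was at 6.93, 4.02 and 12.3 against 0.736, 0.772 and 0.589.

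The next 5 genes were upregulated DEGs. PIK3IP1, a PI3-kinase inhibitor, was at 2.11, 1.33 and 3.12 FPKM in IT and 0.228, 0.267 and 0.309 in DP-3. KLF9, a zinc finger factor, was at 21.4, 13.8 and 22.4 against 4.31, 5.25 and 5.31, and TSC22D3 (GILZ) at 7.97, 4.75 and 6.72 against 2.33, 2.33 and 2.60. SLC2A3, the glucose transporter GLUT3, was at 22.4, 15.1 and 22.8 against 4.94, 6.31 and 4.61. CEMIP, which degrades hyaluronan, was at 37.4, 24.1 and 39.4 against 5.63, 5.87 and 4.22, while FIT and D-3 averaged 8.41 and 5.84.

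Of the chaperone genes looked at, 4 were downregulated DEGs, as were 0.411% of all genes tested. The chaperones were picked after their values were seen, so nothing is read from this count. HSPA8, the constitutive HSP70, was at 272, 322 and 256 FPKM in IT and 583, 584 and 467 in DP-3 (it has pseudogenes that can share its reads). HSPH1 was at 25.3, 28.3 and 34.0 against 60.1, 51.1 and 51.9, CHORDC1 at 6.22, 6.80 and 6.76 against 11.9, 12.3 and 14.02, and HSPA4L at 0.867, 0.940 and 0.880 against 2.04, 2.02 and 2.05. HSP90AA1, HSPD1, HSPE1, DNAJB1 and HSPA1A were not DEGs, the last being stress-inducible, with 29.6, 28.8 and 210 in IT against 124, 92.6 and 97.6.

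No DP-3 library passed the detection limit of 12 estimated counts for 27 upregulated DEGs, and no IT library did for 8 downregulated DEGs. CCR7, a chemokine receptor, was listed at 0 in DP-3 and at 0.307, 0.660 and 2.07 FPKM in IT, at least 13.2-fold higher against the limit per library. FGB, the fibrinogen beta chain, was at least 12.6-fold higher and B4GALNT3, a glycosyltransferase, at least 27.6-fold higher. GRIK2, a glutamate receptor subunit, was at least 9.23-fold lower in IT.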
